A study of Mus musculus with 6 samples.

Results

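Transcription factors that specify and maintain serotonin neurons were examined in RNA bound to tagged ribosomes and in unbound RNA of the mouse midbrain and brainstem. The genes were the 10 listed members Gata2, Gata3, Lmx1b, En1, En2, Nkx2-2, Nkx6-1, Insm1, Foxa1 and Foxa2. Every probe set (the group of probes that reads 1 transcript) whose single gene symbol was a member was taken. Membership went by gene name. That gave 13 of the 45101 probe sets on the array, and the members were 10 of the 18193 genes with such a probe set.

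In translating ribosome affinity purification (TRAP), tagged ribosomes of a chosen cell type are pulled out of a tissue lysate with the mRNA bound to them. All 6 samples came from BAC transgenic mice of the Slc6a4 JD60 line on a mixed FVB and c57/bl6j background, adults of both sexes between 6 and 12 weeks of age, and each sample pooled 5 mice. The tissue ran from the border between pons and hypothalamus back to the end of the brainstem, superior colliculi included and cerebellum removed. The IP group comprised 3 samples of RNA purified from serotonin neurons. The unbound group comprised 3 samples of the RNA that stayed in those lysates, which the labels call total tissue RNA. Both groups carry the transgene, and no mice without it were analysed here. The tagged cells are those in which the regulatory region of Slc6a4, the serotonin transporter gene, drives the transgene. IP and unbound RNA differ in cell type and in ribosome binding at once, so the design cannot tell these apart. Nor can fewer cells of a type be told apart from less RNA per cell in such bulk samples.

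Hindbrain serotonin neurons arise from ventral progenitors marked by the homeodomain factors Nkx2-2 and Nkx6-1, under the influence of the forkhead factors Foxa1 and Foxa2 of the floor plate. As the cells leave the cycle, the zinc finger factors Gata2, Gata3 and Insm1 and the LIM homeodomain factor Lmx1b turn on the genes of serotonin synthesis and transport. Some of these factors stay on in the adult, where Lmx1b and the Engrailed factors En1 and En2 maintain the identity of the neurons. Several are shared with other cells: Gata2 and Gata3 with GABAergic neurons and blood cells, Lmx1b, En1, En2, Foxa1 and Foxa2 with midbrain dopamine neurons, and Nkx2-2 with oligodendrocytes.

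Promoter sequences of RefSeq genes (GRCm38.p6, 250 bases before to 50 after each start) were found for 8 of the 10 members, in 11 windows, but not for En2 and Insm1. The following are shown, 5′ to 3′ on the gene's strand, because Gata2, Lmx1b, En1 and Gata3 were called higher in IP and Foxa1 was not called. Each window was searched on both strands for the GATA words AGATAA or AGATAG and TGATAA or TGATAG, the homeodomain word TAATTA and the forkhead word TGTTTAC, and capitals mark a match. No word overlapped another in these windows.
Gata2, upstream start (chr6:88193641-88193940, plus strand): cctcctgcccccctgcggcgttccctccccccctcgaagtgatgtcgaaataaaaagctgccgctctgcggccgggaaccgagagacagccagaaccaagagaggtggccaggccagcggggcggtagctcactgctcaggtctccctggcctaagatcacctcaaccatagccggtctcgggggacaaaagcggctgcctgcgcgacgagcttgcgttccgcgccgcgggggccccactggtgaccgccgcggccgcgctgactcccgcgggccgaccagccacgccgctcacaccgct
Gata2, downstream start (chr6:88198414-88198713, plus strand): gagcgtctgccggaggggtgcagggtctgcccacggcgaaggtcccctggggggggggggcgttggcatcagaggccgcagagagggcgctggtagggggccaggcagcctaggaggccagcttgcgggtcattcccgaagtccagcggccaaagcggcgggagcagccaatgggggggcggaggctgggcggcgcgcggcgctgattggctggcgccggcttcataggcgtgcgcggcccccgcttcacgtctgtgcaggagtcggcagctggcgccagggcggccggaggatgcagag
Lmx1b (chr2:33641049-33641348, minus strand): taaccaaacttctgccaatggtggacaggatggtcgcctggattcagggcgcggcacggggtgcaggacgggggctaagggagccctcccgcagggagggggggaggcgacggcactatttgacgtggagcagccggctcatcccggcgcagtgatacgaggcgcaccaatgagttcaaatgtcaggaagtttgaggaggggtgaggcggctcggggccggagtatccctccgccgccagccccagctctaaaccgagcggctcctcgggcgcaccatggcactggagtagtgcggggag
En1 (chr1:120602237-120602536, plus strand): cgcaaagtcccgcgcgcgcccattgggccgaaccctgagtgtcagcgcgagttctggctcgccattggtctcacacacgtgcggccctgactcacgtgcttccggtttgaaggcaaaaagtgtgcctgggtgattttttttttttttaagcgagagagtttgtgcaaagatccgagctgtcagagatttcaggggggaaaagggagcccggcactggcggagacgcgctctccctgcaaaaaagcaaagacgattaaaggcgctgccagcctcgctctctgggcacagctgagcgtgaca
Gata3 (chr2:9878551-9878850, minus strand): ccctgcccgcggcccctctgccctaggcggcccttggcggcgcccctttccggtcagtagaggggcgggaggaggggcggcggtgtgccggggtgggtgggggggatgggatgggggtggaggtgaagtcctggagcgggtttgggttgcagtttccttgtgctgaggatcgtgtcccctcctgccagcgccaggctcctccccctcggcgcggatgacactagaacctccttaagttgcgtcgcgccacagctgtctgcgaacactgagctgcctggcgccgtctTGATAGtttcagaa
Foxa1 (chr12:57546062-57546361, minus strand): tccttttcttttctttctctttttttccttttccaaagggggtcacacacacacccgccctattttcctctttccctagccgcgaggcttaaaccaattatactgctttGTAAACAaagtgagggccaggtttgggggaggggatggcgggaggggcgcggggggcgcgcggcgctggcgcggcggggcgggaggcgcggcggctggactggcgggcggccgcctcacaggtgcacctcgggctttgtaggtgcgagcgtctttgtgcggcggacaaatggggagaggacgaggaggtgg
Gata3 held the GATA word TGATAG within the 50 bases after its start, and Foxa1 held the forkhead word, on the opposite strand as GTAAACA, before its start. The windows of Gata2, Lmx1b and En1 held none of these letters. A GATA word also lay in the window of the third, most downstream start of Foxa2. In all, 3 of the 11 member windows held at least 1 of the words, against 34.7% of all 32851 windows of the table (29.8% for the GATA words, 5.29% for TAATTA and 3.65% for the forkhead word). Shared by most of the windows was a high content of G and C, with a median of 64.0% (range 51.7% to 73.7%) against 52.7% over all windows. CG dinucleotides numbered 12 to 40 per window (median 23), against a median of 7 over all windows.

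The values are log2 expression levels as the authors deposited them, made with GCRMA, a method that corrects for background and summarises the probes of a probe set. The submitters normalised each group by itself and recommended scaling between groups to the biotinylated controls added at hybridisation. Accordingly all IP values were shifted by -0.23, the offset between the groups over 18 such controls. A gene was read by its brightest probe set and entered the test if its log2 level was 5 or more, here called the detection limit, on at least 3 of the 6 arrays. It was called, and is said to have risen or fallen, if limma's adjusted p was under 0.05 and the change at least 2-fold. Of 10581 genes tested, 10.4% were called higher in IP and 41.1% lower, and the median log2 change was -0.65. That balance depends on the scaling: lower genes made up 79.8% of calls here, 71.4% with no scaling, 51.4% with arrays centred on the median of expressed probe sets, 49.6% after quantile normalisation over all arrays, 36.5% with the median of all probe sets and 99.7% with the poly-A controls, spiked into the RNA before amplification. The median log2 change in the same order was -0.41, 0.06, 0.04, 0.44 and -3.37 under these alternatives. Levels of different genes come from different probes and are not compared with each other, save in the list sums and in a distance near the end, both descriptions only. As a check of the labels, Slc6a4 rose in IP by 5.15 (limma, SE 0.09, adjusted p = 3.73e-07).

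Gata2, Lmx1b, En1, Gata3 and Nkx6-1 rose in IP, Insm1 and Nkx2-2 fell, and En2 and Foxa1 were not called. Foxa2 was below the detection limit on all 6 arrays and was not tested. With 5 of 9 tested members higher and 2 lower, the shares of all tested genes for comparison are 10.4% and 41.1%. The members were chosen with earlier results of these data known, so this comparison is a description and not a test. The same shares and the same limit apply to the count of each gene list below. The median fitted log2 change of the tested members was 1.51. For 4 of them (Lmx1b, En1, Nkx6-1 and Nkx2-2) 1 whole group lay below the limit, so the filter fixed their direction and only a lower bound on their fold can be given. With these 4 at their bounds the median was 0.69. Log2 changes printed for such genes are fitted values that rest on signal under the limit, and they set no order among genes. The filter likewise fixed the direction of each tested list gene below that had 1 whole group under the limit. The other 5 (Gata2, Gata3, En2, Insm1 and Foxa1) were measured in both fractions. Probe sets whose values do not overlap between groups are common here, at 23.9% of tested genes for IP above unbound and 59.1% for IP below.

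**Figure D1:**
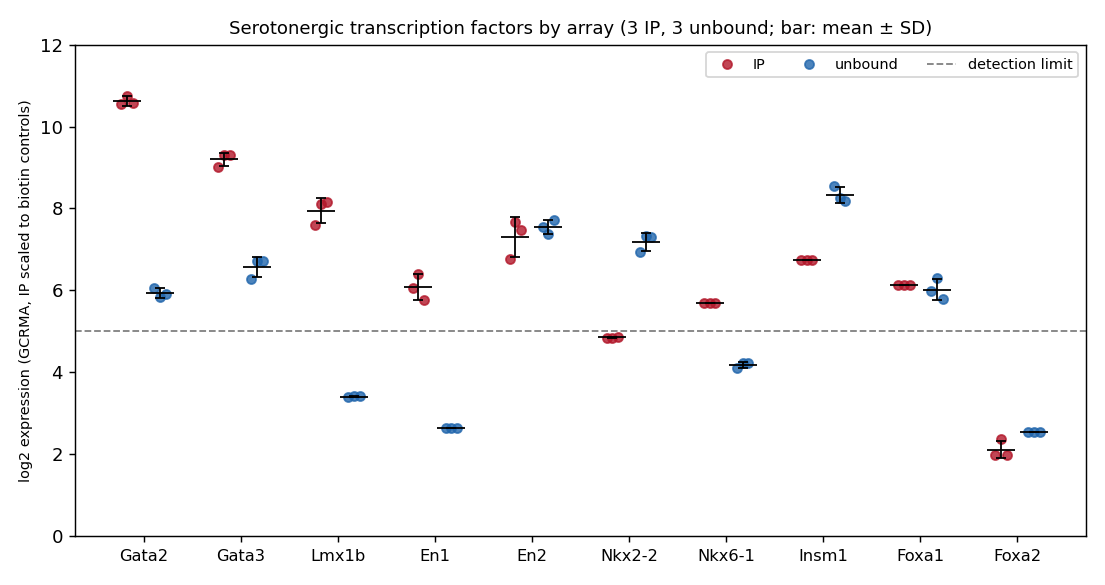
Log2 expression (vertical axis) of the 10 members on each of 3 IP and 3 unbound arrays, with mean and SD, read by the brightest probe set of each gene and scaled to the biotin controls. The IP points of Gata2, Gata3, Lmx1b, En1 and Nkx6-1 lie above their unbound points, those of Nkx2-2 and Insm1 lie below, En2 and Foxa1 overlap, and Foxa2 stays under the detection limit of 5 (dashed line).

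The GATA factors bind DNA through paired zinc fingers, and both act after cell cycle exit in serotonergic precursors. Gata2 had log2 levels of 10.55, 10.75 and 10.56 on the IP arrays and 6.06, 5.83 and 5.90 on the unbound arrays of replicates 1 to 3. Every IP array was thus above every unbound array, with means of 10.62 ± 0.11 and 5.93 ± 0.11 (SD, n = 3). Gata2 rose by 4.69 (25.8-fold, limma, SE 0.10, adjusted p = 4.55e-07).

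Gata3, which serotonin neurons of the caudal raphe need during development, was at 9.02, 9.29 and 9.29 in IP and at 6.28, 6.71 and 6.71 in unbound RNA. The groups did not overlap, and replicates 2 and 3 carried the same value in both fractions. Gata3 rose by 2.64 (6.22-fold, limma, SE 0.15, adjusted p = 1.52e-05), with IP and unbound means of 9.20 ± 0.16 and 6.56 ± 0.24 (SD, n = 3). Under the poly-A scaling its change was -0.041.

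Whether Gata2 or Gata3 increased more depended on which Gata2 probe set was read. With the brighter one the increase of Gata2 exceeded that of Gata3 by 2.05 on the log2 scale, and by 1.76 to 2.33 within the 3 replicate pairs. An exact permutation test over arrays, two-sided, gave p = 0.10 for this difference, the smallest that 3 against 3 arrays allow, and p = 0.10 after adjustment over 3 comparisons computed between relatives. Those of En1 with En2 and of Nkx6-1 with Nkx2-2 are not given, because they rest on values below the limit. The other Gata2 probe set (1428816_a_at) stood at 8.05, 8.40 and 8.32 in IP and at 5.64, 5.89 and 5.66 in unbound RNA, a change of 2.53 (limma over all probe sets, adjusted p = 1e-05). Read by it, the change of Gata2 minus that of Gata3 was -0.11, with a range of -0.32 to 0.071 within pairs. Both probe sets were called higher, so the call of Gata2 held with either one while its order against Gata3 did not.

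GATA factors are also made by blood, endothelial and GABAergic cells, so markers of these were read on the same arrays. Of 6 blood and lymphoid genes, Cpa3, a mast cell protease, was called higher in IP (6.08 ± 0.02 against 2.17 ± 0.00, SD, n = 3, at least 2.12-fold), and the other 5, among them Cd3e, Cd3g and Ptprc, were below the limit on every array of both groups. The summed linear signal of all 6 (the log2 levels turned back to a linear scale and added over the listed genes) was 87.4 to 89.2 on IP arrays and 41.7 to 47.5 on unbound arrays. Most of the IP sum was Cpa3 itself. The rest of it and the whole unbound sum came from values under the limit. A sum of this kind mostly reads the brightest genes of its list. Of 8 endothelial genes, 3 were tested and all fell (Slco1a4, Cldn5 and Slc2a1). For Slco1a4 and Cldn5 the filter fixed the direction. The defining genes Pecam1 and Cdh5 were below the limit on every array. The endothelial sum was 532 to 1186 in IP against 2085 to 2321 in unbound RNA. Slc2a1 was at -1.23 and lost its call without IP replicate 1 (-0.83), without any one unbound array (-1.25 to -1.18, limma adjusted p 0.054 to 0.063), and under 4 other scalings (-0.99 to -0.20). All 6 tested GABAergic and glycinergic genes fell (4 of 6 with the median of all probe sets), the sum being 2134 to 3244 in IP against 10553 to 14267. For 2 of these 6 the filter fixed the direction. Tal1, the partner of Gata2 and Gata3 in GABAergic midbrain and spinal neurons, lay at 3.65 on every IP array and at 7.23 ± 0.28 (SD, n = 3) in unbound RNA, at least 4.69-fold lower. The part of these cells in the Gata2 and Gata3 values was not tested.

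Lmx1b, a LIM homeodomain factor needed for the birth and upkeep of serotonin neurons, stood at 7.59, 8.11 and 8.15 in IP and at 3.39, 3.41 and 3.41 in unbound RNA. All IP arrays were above the detection limit and all unbound arrays below it. The rise was at least 7.72-fold against that limit (limma, log2 change 4.55, SE 0.16, adjusted p = 2.08e-06), and the within-pair differences ran from 4.20 to 4.74. The other probe set of Lmx1b (1421769_at) was below the limit on every array, at 3.31 on all 3 IP arrays and 2.53, 2.40 and 2.40 in unbound RNA, and was not tested. The Lmx1b call thus rests on 1 of its 2 probe sets. Its close relative Lmx1a, a marker of dopamine neurons, was below the limit on all arrays of both groups.

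**Figure D2:**
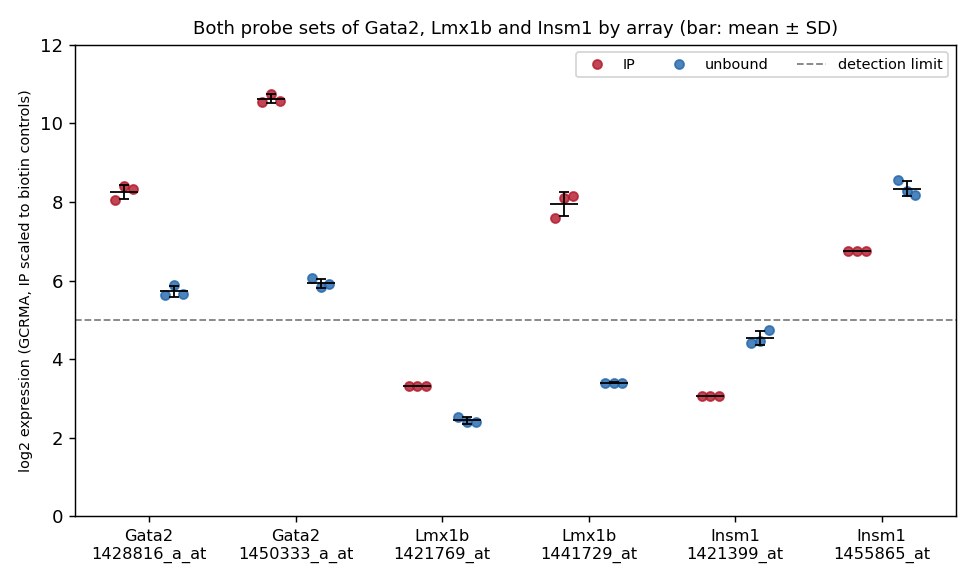
Log2 expression (vertical axis) on 3 IP and 3 unbound arrays for both probe sets of Gata2, Lmx1b and Insm1, with mean and SD. Both Gata2 probe sets are higher in IP (by 2.53 and 4.69), and for Lmx1b and Insm1 only 1 of 2 reaches the detection limit of 5.

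Of the Engrailed factors, En1 rose and En2 was not called. En1 was at 6.07, 6.40 and 5.77 in IP and at 2.63 on each of the 3 unbound arrays. It rose by at least 2.12-fold against the limit (limma, log2 change 3.45, SE 0.16, adjusted p = 6.53e-06). En2 was measured in both fractions, at 6.76, 7.68 and 7.47 in IP and at 7.54, 7.37 and 7.71 in unbound RNA. Its groups overlapped, and the change of -0.24 (SE 0.25, limma adjusted p = 0.407) was not called. En2 had the widest IP spread of the members (SD 0.48), and IP was above unbound in 1 of 3 pairs.

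The sign of En2 was not fixed by these data. It was negative with the biotin controls and the poly-A controls (-2.91), near zero with no scaling, and 0.44 to 0.79 with either median scaling or quantile normalisation. It also turned to 0.033 when IP replicate 1 was left out, the array with the lowest En2 level.

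Nkx6-1 and Nkx2-2, the homeodomain factors of ventral progenitors, were called in opposite directions. Nkx6-1 was at 5.69, 5.68 and 5.68 in IP and at 4.09, 4.22 and 4.22 in unbound RNA, so all IP arrays were just above the limit and all unbound arrays below it. Its rise was at least 1.61-fold against the limit (limma, log2 change 1.51, SE 0.07, adjusted p = 7.43e-06), a bound that falls short of 2-fold. Nkx2-2 was at 4.84, 4.84 and 4.86 in IP and at 6.94, 7.32 and 7.30 in unbound RNA. It fell at least 4.54-fold against the limit (limma, log2 change -2.33, SE 0.12, adjusted p = 9.37e-06). The deposited IP values of Nkx2-2, before scaling, were just above the limit, at 5.07 to 5.10.

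Nkx2-2 is also a factor of the oligodendrocyte lineage, whose genes were lower on the same arrays. All 10 tested genes of that list fell, with a median log2 change of -3.41 (-2.99 with the 4 genes below the limit in IP at their bounds). Their summed linear signal was 17269 to 25982 on IP arrays against 76142 to 87500 on unbound arrays, most of it from Mbp and Cnp. Olig2, Myrf, Pdgfra and Cspg4 were below the limit on every IP array. Mbp, the myelin protein gene, was still at 13.63 ± 0.28 in IP against 15.30 ± 0.11 in unbound RNA (SD, n = 3), and lost its call under both median scalings (-0.64 and -0.996). Cnp lost its call with the median of all probe sets (-0.81). The part of oligodendrocyte RNA in the Nkx2-2 values was not tested. Nkx6-2, a relative of Nkx6-1 that is also made by oligodendrocytes, fell by 2.46 from 7.74 ± 0.29 to 5.28 ± 0.14 (SD, n = 3).

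Insm1, a zinc finger repressor that acts as neuronal precursors leave the cycle, was at 6.75 on all 3 IP arrays and at 8.56, 8.27 and 8.19 in unbound RNA. It fell by 1.59 (3.01-fold lower, limma, SE 0.11, adjusted p = 3.71e-05). The change was -0.56 to -0.91, under 2-fold, with either median scaling or quantile normalisation, so its call depends on the scaling. Its other probe set (1421399_at) was below the limit on every array, with means of 3.05 in IP and 4.54 in unbound RNA. Equal values across arrays were frequent in IP: all 3 arrays agreed for 20.1% of tested genes and at least 2 of 3 for 50.3%, against 0.595% and 3.01% in unbound RNA. The SD of 0.00 for Insm1 therefore does not measure the spread between pools of mice, and the same limit holds for the small IP SDs of Nkx2-2, Nkx6-1 and Foxa1. Equal values also enter the limma SEs and adjusted p-values. Those of these genes, and of others with equal values such as Gata3 and En1, carry the same limit.

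Foxa1 and Foxa2 are forkhead factors that open chromatin and pattern the floor plate. Foxa1 was at 6.12, 6.13 and 6.13 in IP and at 5.98, 6.29 and 5.78 in unbound RNA. The IP values lay inside the unbound range, and the change of 0.11 (SE 0.14, limma adjusted p = 0.497) was not called. Foxa1 was called higher with the median of all probe sets (1.14) and with quantile normalisation (1.35), and lower with the poly-A controls (-2.57). Leaving out unbound replicate 3, its lowest unbound array, gave -0.013. Foxa2 was at 1.98, 2.36 and 1.98 in IP and at 2.54 on each unbound array, close to the floors of the 2 groups, and nothing can be said of its direction.

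**Figure D3:**
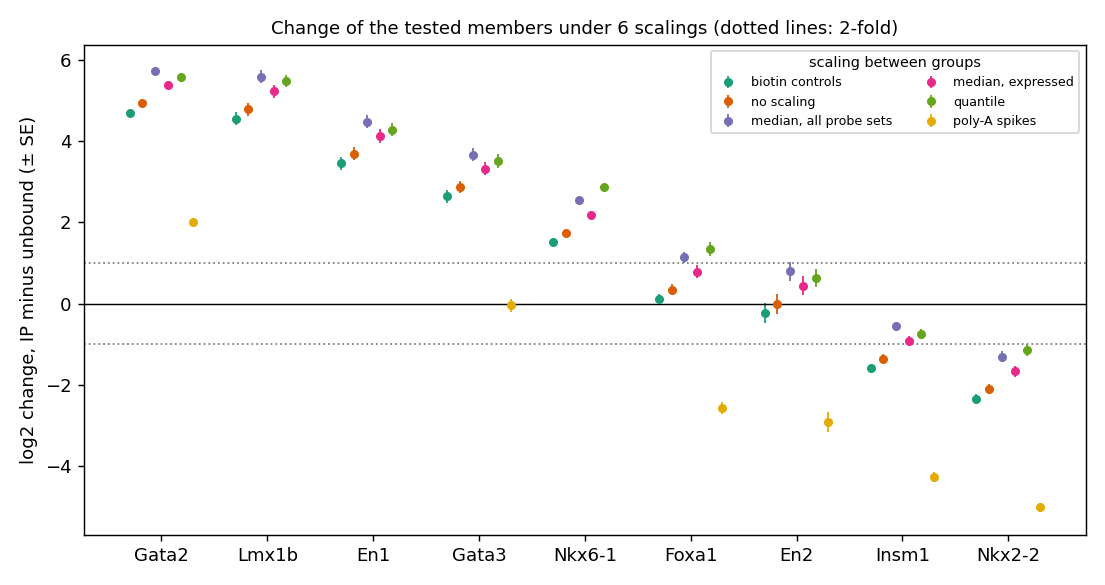
Log2 change, IP minus unbound, with its standard error (vertical axis) for the 9 tested members under 6 scalings between the groups, and dotted lines at 2-fold. Gata2 stays above the upper line under all 6, Nkx2-2 below the lower line under all 6, and En2 and Foxa1 lie on both sides of 0, as does Gata3 with the poly-A controls. Lmx1b, En1 and Nkx6-1 have no point for the poly-A controls, where they did not pass the filter.

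Across the 5 scalings other than the poly-A one, the fitted change was 4.69 to 5.72 for Gata2, 4.55 to 5.58 for Lmx1b, 3.45 to 4.48 for En1, 2.64 to 3.67 for Gata3 and 1.51 to 2.86 for Nkx6-1. All 5 were called higher under each of them. For Lmx1b, En1 and Nkx6-1 the filter had fixed this direction with the biotin scaling, so their agreement across scalings is no independent support. Under the poly-A scaling Gata2 still rose, by 2.01, while Lmx1b, En1 and Nkx6-1 no longer passed the filter. Nkx2-2 was lower under all 6, at -5.01 to -1.14.

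The other regulators of serotonergic development that were tested did not rise. Fev was not analysed here, and Nkx2-9 was not tested. The 4 tested genes of the list fell: the POU factor Pou3f2, the Hedgehog effector Gli2, the Hedgehog ligand Shh and Nkx6-2. Shh fell from 9.33 ± 0.20 unbound to 6.48 ± 0.11 in IP (SD, n = 3). Pou3f2 (at least 2.44-fold lower) and Gli2 (at least 4.26-fold lower) were below the limit on every IP array.

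Relatives by gene family, among them Nkx6-2 and Nkx2-9 of the list above, were mostly below the detection limit. Of the 15 listed, which also include Gata1, Gata4, Gata5, Gata6, Foxa3 and Insm2, only Nkx6-2 was tested, and 13 were below the limit on all arrays of unbound RNA. Nkx2-9 reached it on 1 unbound array. None of the 15 but Nkx6-2 reached the limit on any IP array.

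Cofactors through which these factors act were not called higher in IP, and Zfpm2 and Tle2 were below the limit on every IP array. Of the 20 tested, 0 were called higher and 13 lower (limma), where 10.4% of all tested genes were higher and 41.1% lower. With so few genes and so low a share of higher calls, the lack of higher ones says little about cofactors. Their median log2 change was -1.58 against -0.65 over all tested genes, or -1.32 against -0.58 with genes below the limit in 1 group at their bounds. None of the 20 had an unadjusted p under 0.05 with a positive change. For the GATA factors, the Friend of GATA gene Zfpm2 fell, at least 10.7-fold against the limit, whereas its relative Zfpm1 was not called, with 6.05 ± 0.30 in IP against 6.25 ± 0.10 unbound (SD, n = 3). For the LIM factor Lmx1b, the bridging protein gene Ldb1 was at 6.16 ± 0.00 and 6.05 ± 0.19 (SD, n = 3) and was not called, while Ldb2 and all 4 LIM-only genes fell. Among the Groucho corepressors that Engrailed and NK factors recruit, Tle1, Tle2 and Tle3 fell, and Tle4 had a change of -0.62. Pbx3, a partner of Engrailed, was at 11.73 ± 0.41 and 12.02 ± 0.08 (SD, n = 3) and was not called, nor was Pbx2. For Insm1, Rcor1 and Hdac1 of its repressor complex fell, and Kdm1a (-0.56) and Hdac2 (-0.26) were not called. The signs of Zfpm1, Pbx2, Pbx3, Tle4, Kdm1a and Hdac2 turned positive under both median scalings. Calls of lower cofactors fell from 13 to 11 with no scaling, 10 with the median of expressed probe sets, 9 with quantile normalisation and 7 with the median of all probe sets. Lmo2 (-0.74 to -0.39), Tle1 (-0.35 to 0.0045) and Hdac1 (-0.55 to -0.19) were not called under the last 3 of these, nor were Tle1 (-0.79) and Hdac1 (-0.99) with no scaling. Tle3 was not called with the median of all probe sets (-0.72) or quantile normalisation (-0.92). Ldb1 was called higher with the median of all probe sets (1.14) and with quantile normalisation (1.34), and Zfpm1 with the latter (1.01).

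**Figure D4:**
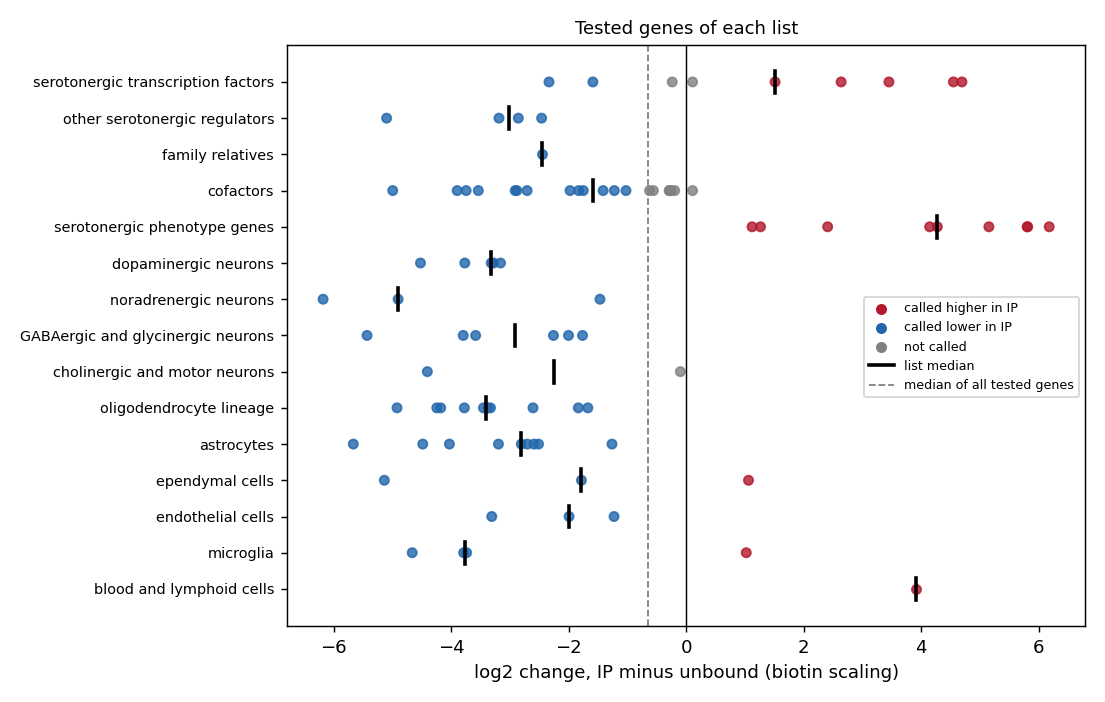
Log2 change, IP minus unbound (horizontal axis), of each tested gene in the member list and 14 other gene lists, coloured by call, with list medians (black bars) and the median of all tested genes at -0.65 (dashed line). The 9 tested serotonergic transcription factors spread from -2.33 to 4.69, the 9 serotonergic phenotype genes lie to the right of 0, and the tested genes of other transmitter types are all at or left of 0.

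Genes of the serotonergic phenotype were read beside the factors. All 9 listed phenotype genes rose, with a median log2 change of 4.27: Tph2 and Gch1 of serotonin and cofactor synthesis, Ddc, Slc18a2 and Slc6a4 of synthesis, storage and uptake, Maoa and Maob of breakdown, and the receptors Htr1a and Htr1b. Gata2, by its brighter probe set, had a change between those of Maob (4.27) and Slc6a4 (5.15), and Gata3 had one near that of Htr1a (2.41). This list was chosen with earlier results of these data known, so it describes the labelled cell type and does not test it. Under the poly-A scaling Htr1a (-0.27), Htr1b (-1.41) and Maoa (-1.56) turned negative.

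Midbrain dopamine neurons share Lmx1b, En1, En2, Foxa1 and Foxa2 with serotonin neurons and lay within the dissected tissue. All 5 tested dopaminergic genes fell (Otx2, Aldh1a1, Nr4a2, Slc6a3 and Th), with a median log2 change of -3.32 (-3.28 with Otx2 and Th at their bounds). Their list summed to 634 to 758 on IP arrays and 7959 to 9942 on unbound arrays. Th was below the limit on every IP array, and Pitx3 and Lmx1a on every array of both groups. All 3 tested noradrenergic genes fell too (Tfap2b, Slc6a2 and Dbh). The noradrenergic list summed to 603 to 634 in unbound RNA and to 53.9 to 60.0 in IP. For 2 of the 3, Tfap2b and Slc6a2, the filter fixed the direction. The median log2 change of the 3 was -4.90 as fitted and -1.89 with those 2 at their bounds. Dbh (-1.47) was not called with either median scaling (-0.44 and -0.79) or quantile normalisation (-0.30). Of 6 cholinergic and motor neuron genes 2 were tested, Isl1, which fell at least 2.65-fold against the limit, and Prph, at -0.10 and not called. The part of these neurons in the unbound levels of En2 and Foxa1 was not tested.

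Of the remaining marker lists, all 9 astrocyte genes fell, among them Sox9, Gfap and Aqp4. Of these 9, 8 were called under both median scalings, where Aldoc was at -0.23 and -0.59. The filter fixed the direction of 3 of the 9 astrocyte genes. It did so for 2 of the 3 tested ependymal genes and 3 of the 4 tested microglial genes. Ependymal genes gave 2 lower, Ccdc153 and Rarres2, of which Rarres2 (-1.78) was not called with the median of all probe sets (-0.75) or quantile normalisation (-0.52), and Dynlrb2 higher at 1.06, a call that was lost without unbound replicate 2 (0.92) or unbound replicate 3 (0.99). Microglial genes gave 3 lower (Cx3cr1, Csf1r and C1qa) and Aif1 higher (at least 1.66-fold).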

How the data were processed

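Affymetrix arrays of 3 IP and 3 unbound samples were compared, each a biological replicate per the labels, made from 20 ng of RNA by two-cycle amplification. The deposited log2 values were made by the authors with GCRMA within each group, per the series' design text; the tool's name is from the submitters' processing notes, which give no version. Of the probe sets, 34945 had 1 gene symbol in the platform annotation and were used, 932 had several and were left out with 64 controls. Each gene was read by the probe set with the highest mean. limma 3.58.1 (R 4.3.3, lmFit and eBayes on group, two-sided, Benjamini-Hochberg over all tested genes) gave changes, standard errors and adjusted p-values. Across genes, same-numbered IP and unbound arrays deviated from their group means with correlations of 0.27, 0.16 and 0.10. Differently numbered arrays gave -0.25 to 0.21. The highest of these, IP replicate 3 with unbound replicate 2, exceeded the same-numbered values of replicates 2 and 3. The correlations thus do not single out the pairing of those replicates. The labels assign each unbound sample to a replicate, so a fit with replicate pairs as a block was run beside. A fold of at least N sets the bright mean against the dim mean after raising dim arrays to the limit of 5. The members and gene lists were chosen with earlier results of these data known. Some genes of the lists are not reported here. List genes named are up to 3 called ones with the largest change, plus those needed to make a count specific or, chosen after their values were seen, to cover a factor's known partners. Alternatives were other scalings, filters, probe set rules, variance models and leaving out single arrays. Only 3 arrays per group limit the precision.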

Additional observations from a re-analysis of the deposited data

How the results depend on the processing

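The counts of 5 members higher and 2 lower were the same without any single array (5 and 2 throughout), with the replicate block (5 and 2, with 1108 genes higher and 4360 lower) and with a trended variance model. The replicate block changed no call of a member. The same 10581 genes were tested in these fits, because the filter was not drawn anew when an array was left out. That filter had fixed the direction of Lmx1b, En1, Nkx6-1 and Nkx2-2. For these 4 members the stable counts are therefore no independent support. Without single arrays, 1090 to 1127 genes were higher and 4247 to 4405 lower. Lower members numbered 1 with the median of all probe sets (3581 genes higher, 2057 lower), with the median of expressed probe sets (2548 and 2698), with quantile normalisation (2514 and 2473) and with genes of identical values left out, which removes En1 and Insm1 from the test. The poly-A scaling gave 1 member higher and 4 lower (35 genes higher, 9992 lower). A filter at log2 7 left 5 members to test, 3 higher and 1 lower. Every probe set by itself gave 1748 higher and 7233 lower over more features. With the mean of all probe sets, Lmx1b was at 2.71 and Gata2 at 3.61.

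Signs turned as follows. With no scaling, Prph was 0.13 and Zfpm1 0.038. With the median of all probe sets, En2 was 0.79, Hdac2 0.77, Kdm1a 0.47, Pbx2 0.74, Pbx3 0.74, Prph 0.93, Tle4 0.41 and Zfpm1 0.83. With the median of expressed probe sets, En2 was 0.44, Hdac2 0.42, Kdm1a 0.12, Pbx2 0.39, Pbx3 0.39, Prph 0.58, Tle4 0.053 and Zfpm1 0.48. With quantile normalisation, En2 was 0.63, Pbx2 0.48, Prph 0.80 and Zfpm1 1.01. With the poly-A controls, Dynlrb2 was -1.62, Foxa1 -2.57, Gata3 -0.041, Htr1a -0.27, Htr1b -1.41, Ldb1 -2.57 and Maoa -1.56. With single arrays left out, En2 ranged from -0.42 to 0.033 (positive without IP replicate 1), Foxa1 from -0.013 (without unbound replicate 3) to 0.25, and Prph from -0.16 to 0.020 (positive without unbound replicate 2). The cause of these turns was not tested; scalings that add a constant move all genes alike. Signal near the detection limit leaves the folds of Lmx1b, En1, Nkx6-1 and Nkx2-2 as bounds.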

Other observations

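Genes whose 6 log2 values lay nearest to those of a member, by Euclidean distance over the 6 arrays, were listed for Gata2, Gata3 and Lmx1b. For Gata2 they were Ctxn1 (distance 0.79), Ctla2a (1.83) and Tmem176a (2.08), and Ctxn1 had means of 10.82 in IP and 5.75 in unbound RNA. For Gata3 they were BC030500 (0.47), Ccdc107 (0.49) and Zfp414 (0.53). For Lmx1b they were Ptpn20 (0.91), A230051N06Rik (1.43) and Fxyd2 (1.52), and Ptpn20 had means of 8.21 and 3.77. The distance compares values across different probes and groups, and is a description only.

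Insm1, Nkx2-2 and Foxa2 lie near each other on chromosome 2 in the RefSeq gene order of GRCm38.p6, with 4 protein-coding genes between Insm1 and Nkx2-2 (Ralgapa2, Kiz, Xrn2 and Nkx2-4) and 1 (Pax1) between Nkx2-2 and Foxa2. Of these 3 members, 2 fell and Foxa2 was below the limit. Gata3 and Lmx1b, both higher in IP, are on the same chromosome but 299 protein-coding genes apart.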
